A study of Mus musculus with 6 samples.

Results

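Immune checkpoint ligands and receptors were described as 10 genes, taken by symbol from the 16729 genes that the deposited table lists, and all 10 were found. They are the ligands Cd274 (PD-L1), Pdcd1lg2 (PD-L2), Cd80, Cd86 and Cd276 (B7-H3) and the receptors Pdcd1 (PD-1), Ctla4, Tigit, Lag3 and Havcr2 (TIM-3). RNA-seq had been performed on intracranial tumors that grew from mG7080 cells in C57BL/6 hosts (C57BL/6J by the methods), either WT (3 libraries) or ESM1-KO (3 libraries). This line is a gliomasphere culture from a mouse GBM model. Esm1 encodes Endocan, a proteoglycan secreted by vascular endothelial cells, and the purpose was to see how tumors grow where the host does not make it. The deletion was carried by the host and not by the injected tumor cells, which were the same in both groups. Hosts were female and aged 6 to 8 weeks by the methods, whereas the reporting summary gives an older range. RNA came from whole frozen tumor tissue, so each library mixes RNA of tumor cells, infiltrating host cells and adjoining brain. The design gives 3 mice per group, so each library was taken as 1 mouse, and p-values measure the spread between these 6 tumors.

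Immune checkpoints are pairs of surface proteins through which one cell restrains a T cell or natural killer cell. Cd274 and Pdcd1lg2 bind the receptor Pdcd1, Cd80 and Cd86 bind Ctla4 as an inhibitory and Cd28 as an activating receptor, and Tigit binds Pvr and Nectin2. Lag3 binds class II MHC, Havcr2 has Lgals9 and Ceacam1 among its reported ligands, and the receptor of Cd276 is not settled. Pdcd1, Ctla4 and Tigit are mostly made by T cells and natural killer cells, Lag3 by these and other cells, Havcr2 by T cells and myeloid cells, Cd80 and Cd86 by microglia, macrophages and dendritic cells, and Cd274 and Cd276 by tumor cells as well. Interferon gamma, released by T cells and natural killer cells, is a classical inducer of Cd274, and Irf1 is among the factors it acts through.

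On GRCm38, Cd274 lies on chromosome 19 from 29367455 to 29388095 and Pdcd1lg2 from 29410919 to 29471161 on the same strand, with 22823 bases between them. Cd80, Cd86 and Tigit all lie on chromosome 16, Pdcd1 and Ctla4 on chromosome 1, Lag3 on chromosome 6, Havcr2 on chromosome 11 and Cd276 on chromosome 9. The annotation has a noncoding gene antisense to Cd274 (AC119228.1), another antisense to Pdcd1lg2 (A930007I19Rik) and a further gene model across Cd276 (Gm10657). The sources used here do not state whether counting used strand, so reads of these overlaps cannot be told apart. RefSeq promoter windows on GRCm38.p6, from 250 bases before to 50 bases after the start, were found for 8 of the 10 members, the others being Lag3 and Cd86. Windows are printed here for a ligand, its receptor and the member whose window differed most in base composition, each 5′ to 3′ on the strand of the gene, with every CG dinucleotide in capitals. They are Cd274 (chr19:29367188-29367487, plus strand), Pdcd1 (chr1:94052504-94052803, minus strand) and Cd276 (chr9:58554984-58555283, minus strand).
Cd274: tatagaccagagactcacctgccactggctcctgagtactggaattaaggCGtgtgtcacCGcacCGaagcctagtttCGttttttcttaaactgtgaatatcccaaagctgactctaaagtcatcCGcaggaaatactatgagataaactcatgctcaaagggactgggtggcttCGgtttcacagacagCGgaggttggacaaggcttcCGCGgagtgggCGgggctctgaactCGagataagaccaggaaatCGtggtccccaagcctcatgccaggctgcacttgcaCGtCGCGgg
Pdcd1: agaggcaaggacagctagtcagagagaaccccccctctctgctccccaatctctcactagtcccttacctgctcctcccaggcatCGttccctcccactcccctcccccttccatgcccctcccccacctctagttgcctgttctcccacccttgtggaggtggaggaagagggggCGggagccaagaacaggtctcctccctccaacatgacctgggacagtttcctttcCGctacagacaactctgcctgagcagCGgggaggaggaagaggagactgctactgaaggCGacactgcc
Cd276: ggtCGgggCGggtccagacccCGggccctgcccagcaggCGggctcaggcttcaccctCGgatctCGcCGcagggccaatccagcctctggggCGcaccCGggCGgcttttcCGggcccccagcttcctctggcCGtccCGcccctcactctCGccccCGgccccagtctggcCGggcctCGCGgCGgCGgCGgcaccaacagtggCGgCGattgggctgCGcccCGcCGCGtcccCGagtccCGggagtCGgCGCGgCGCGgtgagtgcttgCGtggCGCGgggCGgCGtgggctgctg
The window of Cd276 held 39 CG dinucleotides, and 95.6% of 32851 promoter windows held fewer. Cd274 followed with 15, against a median of 7 over all windows, and the other 6 members held between 3 and 8. Each window was searched on both strands for an interferon response element (GAAA repeated after any 2 bases), a gamma-activated site spelled TTCNNNGAA and the E-box CACGTG. None of the 8 windows held any of them, where 3.44%, 8.30% and 7.15% of all windows held the respective motif. With shares this low, no hit of a given motif in 8 windows is not unusual. Other spellings and sites outside the windows were not searched, so the search cannot show that such elements are absent.

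Library totals ran from 17632070 to 22241832 counts, and levels are given as CPM (counts scaled to library size with the TMM factors of edgeR), in which 1 read was worth 0.0445 to 0.057. The targeted gene, Esm1, was counted 25, 21 and 82 times in the WT libraries. It was counted 1 time in KO 1 and 4 times in KO 3, but 24 times in KO 2. The annotated interval of Esm1 overlaps Gzmk, a granzyme gene of cytotoxic lymphocytes on the other strand, so some of these reads may come from either gene. Gzmk was counted 10, 9 and 5 times in the WT libraries and 21, 34 and 22 times in KO 1, KO 2 and KO 3. Every KO library thus had more Gzmk reads than any WT library, KO 2 the most, while KO 1 and KO 3 had few Esm1 reads. In Esm1 the library labelled KO 2 was like a WT library, whereas in Gzmk it lay with the other KO libraries. The share of all genes with every KO library above every WT library is not given here. Gzmk, 1 gene on 5 to 34 reads, therefore cannot decide the label. Its label is doubtful, but this is not settled, as the injected cells were not deleted for Esm1 and the part of Gzmk was not tested. Results are therefore given for all 6 libraries as labelled, without KO 2 (5 libraries), and for WT 1, WT 2, KO 1 and KO 3, the 4 libraries that have columns in the results sheet of the study. The comparison over 4 libraries was chosen with earlier results of these data known. Its p-values are thus not those of a set fixed beforehand, and it too leaves out KO 2. Over all 6 libraries 0 of 16166 genes passed edgeR's quasi-likelihood test at an adjusted p under 0.05, with 1923 lower and 2462 higher genes at an unadjusted p under 0.05. Among other tools, limma-voom called 0 genes in either direction, the exact test of edgeR 39 lower and 66 higher, and DESeq2 425 and 757. Over the 4 libraries, 2244 of 16183 genes fell and 464 rose by the quasi-likelihood test.

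Per length of transcript, the most abundant members in WT tumors were Cd276, Lag3 and Cd274, with mean FPKM (reads scaled to library size and transcript length, as the authors deposited it) of 19.8 ± 5.33, 18.1 ± 5.97 and 13.2 ± 0.887 (SD, n = 3). The WT libraries of Cd276 and Lag3 overlapped, as did those of Lag3 and Cd274. Cd86 (5.75 ± 1.14 FPKM) and Havcr2 (4.27 ± 0.674 FPKM) came next, both of them genes of myeloid cells. The receptors of T cells were scarcer, at 2.12 ± 0.394 FPKM for Pdcd1, 2.00 ± 0.270 FPKM for Tigit and 1.46 ± 0.277 FPKM for Ctla4, and the first 2 overlapped. Cd80 (0.955 ± 0.189 FPKM) and Pdcd1lg2 (0.414 ± 0.0631 FPKM) were the lowest. The mean FPKM of KO 1 and KO 3 was highest for Lag3 (5.04), Cd276 (4.69) and Havcr2 (1.97) and lowest for Tigit (0.0773). When CPM per kilobase of annotated exon was used in place of FPKM, 4 of the 10 members kept their place in the WT order. The others swapped with a neighbour, namely Cd276 with Lag3, Cd86 with Havcr2, and Cd80 with Pdcd1lg2.

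Among the ligands, Cd274 differed most between libraries. This ligand of Pdcd1 restrains T cells and is the target of PD-L1 antibodies. It was at 47.7, 46.3 and 41.6 CPM in WT 1, WT 2 and WT 3, and at 8.16 CPM in KO 1, 59.2 in KO 2 and 3.90 in KO 3. KO 1 and KO 3 lay below every WT library and KO 2 above every one, so the groups overlapped. The exact 95% counting intervals of KO 1 (6.88 to 9.61 CPM) and KO 3 (3.07 to 4.89 CPM) did not overlap either, while the WT libraries spanned a narrow range. Over 6 libraries the log2 fold change, KO against WT, was -0.95 (standard error [SE] 0.95, edgeR adjusted p = 0.466). Over the 4 libraries Cd274 fell, with a log2 fold change of -2.97 (SE 0.39, edgeR adjusted p = 0.0343). The WT mean was 7.5 times the mean of KO 1 and KO 3. Pdcd1lg2, the other ligand of Pdcd1 and the neighbour of Cd274 on the chromosome, placed KO 1, KO 2 and KO 3 in the same way around the WT libraries, at far lower counts. It was at 1.14, 1.45 and 1.38 CPM in the WT libraries (24, 28 and 28 counts) and at 0.399, 1.87 and 0.312 CPM in KO 1, KO 2 and KO 3 (7, 42 and 6 counts). Its log2 fold change was -0.62 over 6 libraries (SE 0.70, edgeR adjusted p = 0.52) and -1.86 over 4 (SE 0.46, edgeR adjusted p = 0.0528), past the threshold in neither.

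Cd80 and Cd86, the costimulatory B7 ligands of antigen-presenting cells, divided the libraries in the same way. Cd86 was at 12.3, 16.3 and 12.4 CPM in WT 1, WT 2 and WT 3 and at 2.85, 17.9 and 2.86 CPM in KO 1, KO 2 and KO 3. KO 1 and KO 3 were almost identical to each other and well below the lowest WT library, whereas KO 2 was the highest of the 6. The log2 fold change of Cd86 was -0.81 over 6 libraries (SE 0.76, edgeR adjusted p = 0.438) and -2.33 over 4, where it fell (SE 0.31, edgeR adjusted p = 0.0343). Cd80 was at 1.48, 1.81 and 1.28 CPM in the WT libraries and at 0.399, 2.09 and 0.26 CPM in the KO libraries, on 5 to 47 counts. KO 2 again lay above and the other KO libraries below all WT libraries. Its log2 fold change was -0.73 over 6 libraries (SE 0.77, edgeR adjusted p = 0.493) and -2.31 over 4 (SE 0.48, edgeR adjusted p = 0.0415).

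Cd276, a B7 family protein that many tumor cells carry, was the exception among the ligands. It was at 47.2, 74.5 and 55.6 CPM in WT 1, WT 2 and WT 3 and at 17.2, 46.6 and 16.4 CPM in KO 1, KO 2 and KO 3. All 3 KO libraries lay below all WT libraries, although KO 2 was only just below WT 1, and the exact 95% counting intervals of these libraries overlapped. No other member separated the groups as labelled, where 14.6% of the 16166 genes tested had all KO libraries below all WT libraries. The log2 fold change of Cd276 over 6 libraries was -1.16 (SE 0.46), with an unadjusted edgeR p of 0.044 and an adjusted p of 0.184. Over 4 libraries it was -1.87 (SE 0.28, edgeR adjusted p = 0.0343), and the WT mean was 3.51 times that of KO 1 and KO 3.

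Among the receptors, Tigit, Pdcd1 and Ctla4, the inhibitory receptors of activated and regulatory T cells, were close to the counting floor in KO 1 and KO 3. Reads of Pdcd1 numbered 71, 87 and 73 in the WT libraries (3.38, 4.50 and 3.60 CPM). It had 5 counts in KO 1, 111 in KO 2 and 3 in KO 3 (0.285, 4.94 and 0.156 CPM). The library labelled KO 2 was thus the highest of the 6, and the other KO libraries held a few reads each. Summed over libraries, the WT level of Pdcd1 was 17.5 times that of KO 1 and KO 3, with an exact 95% counting interval of 8.73 to 41.0. The log2 fold change was -1.10 over 6 libraries (SE 1.16, edgeR adjusted p = 0.489), and over the 4 libraries Pdcd1 fell (-4.14, SE 0.51, edgeR adjusted p = 0.0343). Ctla4, which competes with Cd28 for Cd80 and Cd86, had 48, 60 and 52 counts in the WT libraries (2.28, 3.10 and 2.57 CPM). It had 4, 63 and 3 counts in KO 1, KO 2 and KO 3 (0.228, 2.80 and 0.156 CPM), so that KO 2 lay inside the WT range. Its pooled WT level was 13.8 times that of KO 1 and KO 3 (6.57 to 35.0). In log2, the fold change was -1.31 over 6 libraries (SE 1.02, edgeR adjusted p = 0.358) and -3.78 over 4 (SE 0.51, edgeR adjusted p = 0.0343). Tigit, the receptor of Pvr and Nectin2 on T and natural killer cells, had 35, 39 and 35 counts in the WT libraries (1.67, 2.02 and 1.73 CPM). It had 2 counts in KO 1 and 1 in KO 3, both under the floor of 3 counts (0.171 and 0.156 CPM) that a count of 0 allows, and 65 counts in KO 2 (2.89 CPM). The pooled WT level was 22 times that of KO 1 and KO 3, but on 3 counts the interval ran from 7.34 to 108. Its log2 fold change was -0.81 over 6 libraries (SE 1.21, edgeR adjusted p = 0.622) and -4.40 over 4 (SE 0.59, edgeR adjusted p = 0.0343), the largest difference of any member in that comparison.

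Lag3 and Havcr2 differed by less. Lag3, an inhibitory receptor of T cells that binds class II MHC, was at 44.5, 36.7 and 21.4 CPM in WT 1, WT 2 and WT 3 and at 12, 36.9 and 10.7 CPM in KO 1, KO 2 and KO 3. Relative to their mean, its WT libraries were the most spread of the 10 members, and KO 2 lay within them. The log2 fold change of Lag3 was -0.80 over 6 libraries (SE 0.55, edgeR adjusted p = 0.309) and -1.85 over 4, where it fell (SE 0.21, edgeR adjusted p = 0.0343). Havcr2, a receptor of exhausted T cells that microglia and dendritic cells also make, was at 9.28, 11.8 and 11.6 CPM in the WT libraries. It was at 6.96, 12 and 5.10 CPM in KO 1, KO 2 and KO 3, the smallest difference of the 10. Its log2 fold change was -0.46 over 6 libraries (SE 0.35, edgeR adjusted p = 0.353) and -0.82 over 4 (SE 0.32, edgeR adjusted p = 0.11), and neither passed.

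**Figure D1:**
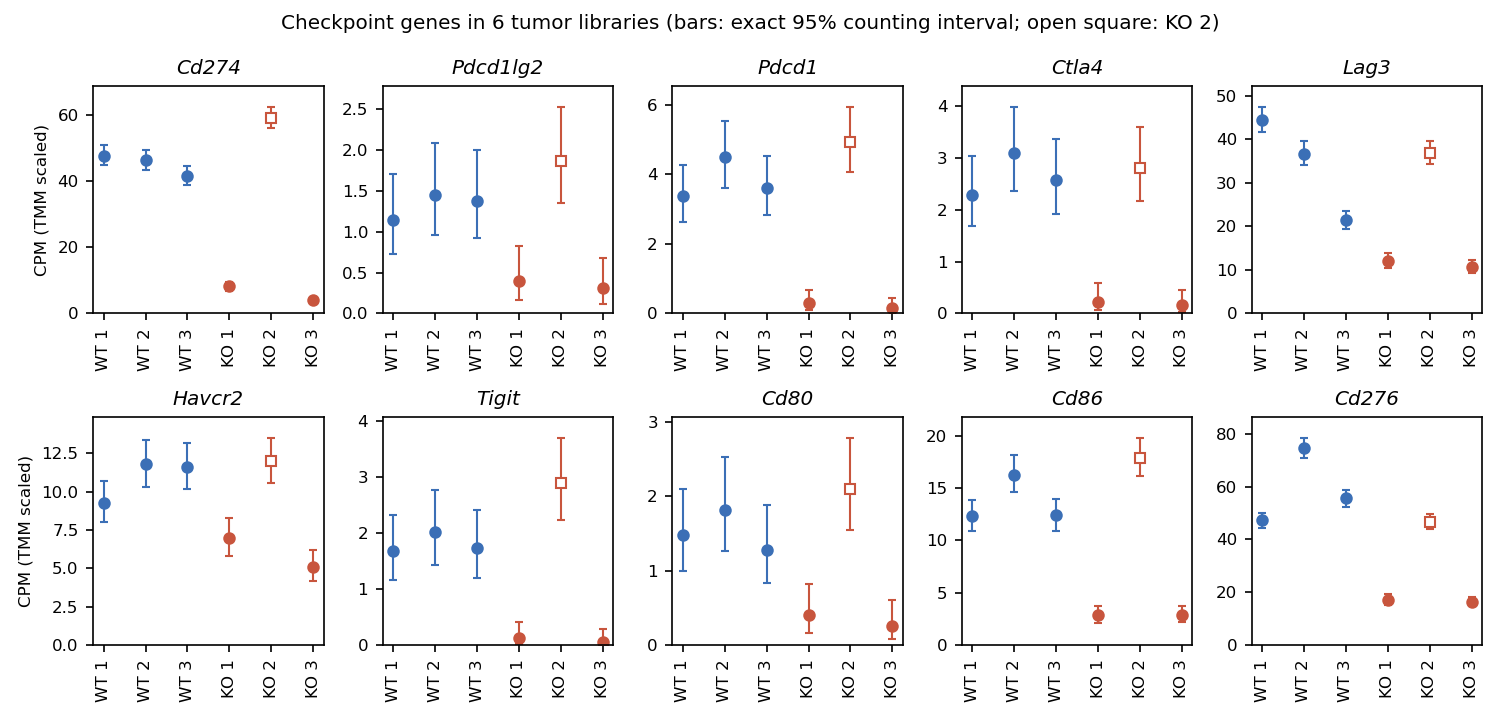
CPM of each member (y axis, linear, a scale for each gene) in the 3 WT (blue) and 3 KO (red) libraries, with exact 95% counting intervals and KO 2 as an open square. KO 1 and KO 3 lie below all WT libraries in all 10 panels, whereas KO 2 lies below them for Cd276 alone.

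Over all 6 libraries, 0 of the 10 members passed at an adjusted p under 0.05, as did 0% of all genes tested. At an unadjusted p under 0.05, 1 member (Cd276) was lower by edgeR's quasi-likelihood test, against 11.9% of genes, and 0 members were higher, against 15.2% of genes. DESeq2, edgeR's exact test and limma-voom likewise called 0 members at an adjusted p under 0.05, but DESeq2 gave Cd274 no adjusted p. All 10 had a negative log2 fold change, as did 51.3% of the genes tested, and their median was -0.81 against -0.02 over all genes. Over the 4 libraries, 8 of the 10 members fell and 0 rose, where 13.9% of all genes fell and 2.87% rose. The members outside the call were Pdcd1lg2 and Havcr2. The edgeR adjusted p of 0.0343 that most called members share was the smallest of any gene in this comparison. It therefore does not rank them. The median log2 fold change of the members was -2.32, against -0.03 over all genes, and 6 of the 10 members fell by more than 4-fold, against 6.23% of genes. Few genes had a more negative log2 fold change than Tigit (1.12% of the genes tested), Pdcd1 (1.45%) or Ctla4 (2.05%), but 22.5% did so for Havcr2. Over the 5 libraries without KO 2, all 10 members fell, with log2 fold changes from -4.35 (Tigit) to -0.85 (Havcr2) and adjusted p from 0.00798 to 0.0328 by edgeR. In that comparison 28.3% of 16279 genes fell and 24.5% rose.

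**Figure D2:**
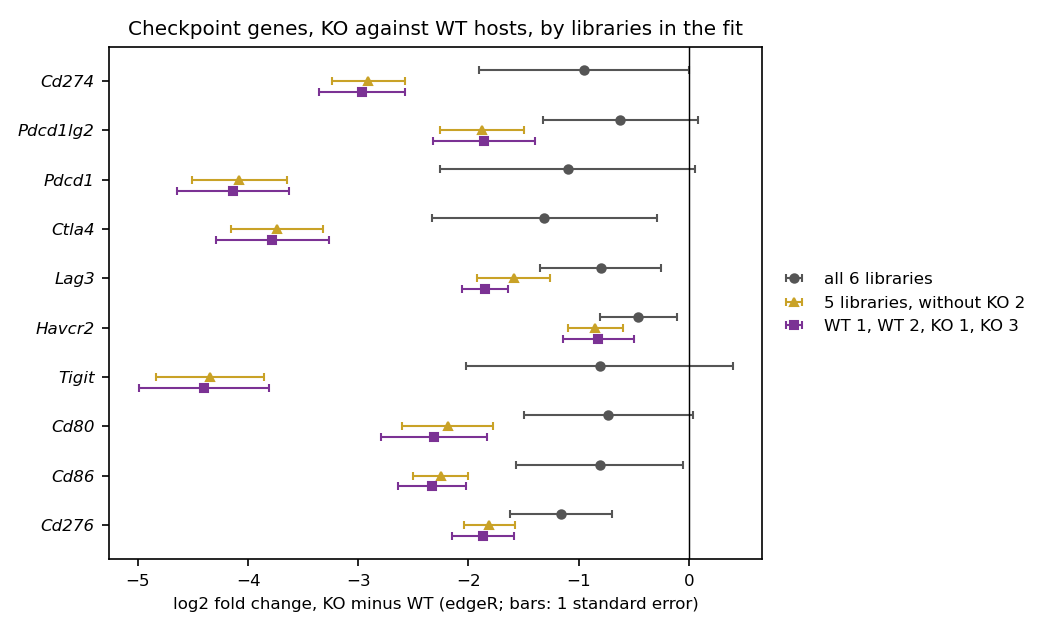
Log2 fold change of each member, KO against WT hosts (x axis), over all 6 libraries, over 5 without KO 2 and over WT 1, WT 2, KO 1 and KO 3, with bars of 1 standard error. The 6-library estimates lie between -1.31 and -0.46, and those over 4 libraries between -4.40 and -0.82.

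The 4-library calls rested on single libraries to different degrees. Without KO 3, 1 member (Cd274) passed, at a log2 fold change of -2.52, where 1.54% of 16413 genes fell. The other 7 missed with larger SEs but similar log2 fold changes, among them -3.93 for Tigit, -3.75 for Pdcd1, -3.52 for Ctla4, -2.32 for Cd86 and -1.75 for Lag3. Without KO 1, 6 members fell, against 5.62% of genes, and Cd80 and Cd86 missed. Without WT 2, 7 fell, against 12.5% of genes, and Cd80 missed. These fits take the spread of the group with a single library from the other group. Over the 12 alternatives tried for the 4 libraries, the adjusted p of Cd274 reached at most 0.0405, whereas that of Tigit reached 0.103 and that of Cd80 0.205. Havcr2 passed in 0 of the 12 and Pdcd1lg2 in 3. No member changed sign under any alternative, with 4 or with 6 libraries.

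The library labelled KO 2 stood at 0.789 (Cd276) to 1.61 (Tigit) times the WT mean of the members. It lay above all WT libraries for 7 members, against 24.1% of genes, and for all 7 of them KO 1 and KO 3 lay below, a pattern that 5.52% of genes had. It lay below all WT libraries for 1 member, Cd276, against 21.3% of genes. KO 1 and KO 3 lay below all WT libraries for 10 of 10 members, where 40.4% of genes did so. KO 3 was the lowest of the 6 libraries for 9 members, against 30.3% of genes, the exception being Cd86. The members varied together over the 6 libraries, with pairwise Pearson correlations of log2 CPM from 0.806 to 0.998 over 45 pairs and a median of 0.97. These correlations describe 6 points that share library and depth, and KO 1 and KO 3 are the low points in every member.

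Genes of the same pathways were counted from lists chosen with results of these data known, and over 6 libraries 0 genes of any list passed. Over the 4 libraries 13.9% of all genes tested fell and 2.87% rose, the shares to set beside the counts of each list. Of 15 listed partners of the members, 6 fell and 0 rose over the 4 libraries, with a median log2 fold change of -1.18. Lgals9, a ligand of Havcr2, was at 49.7, 86.9 and 87.0 CPM in the WT libraries and at 11.1, 61.4 and 7.13 CPM in KO 1, KO 2 and KO 3. The others that fell were Icos, Cd96, Nectin2 (listed as Pvrl2), Lgals3 and Ptpn6, named with Lgals9 after their values were seen. Lgals3, a lectin that binds Lag3, had the lowest log2 fold change of the list over 6 libraries (-1.61, SE 1.15, edgeR adjusted p = 0.324). It was at 21.9, 55.1 and 52.7 CPM in the WT libraries and at 4.96, 37.0 and 1.15 CPM in the KO libraries. The highest was Rgmb, a partner of Pdcd1lg2, at 27.3, 16.1 and 18.2 CPM in WT and 40.0, 21.3 and 51.0 CPM in KO (0.85, SE 0.37, adjusted p = 0.187). Cd28, the activating receptor of Cd80 and Cd86, had a log2 fold change of -1.14 over 4 libraries (SE 0.52, edgeR adjusted p = 0.143), and its call differs from that of Ctla4, a difference that was not tested.

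Other checkpoint genes did not share one direction. Of 15 in the file, 4 fell (Cd244, Tnfrsf14, Entpd1 and Lair1) and 1 rose (Cd47) over the 4 libraries, and their median log2 fold change was -0.08. Of all genes tested, 13.9% fell and 2.87% rose there. Cd47, the signal that restrains phagocytes, was at 61.8, 49.1 and 61.8 CPM in the WT libraries and at 93.4, 61.0 and 99.8 CPM in KO 1, KO 2 and KO 3. Over the 4 libraries Cd47 rose by a log2 fold change of 0.79 (SE 0.19, edgeR adjusted p = 0.0498), and these genes too were named after their values were seen. Sirpa, the receptor of Cd47 on myeloid cells and neurons, had the highest log2 fold change of the list over 6 libraries, with 279, 154 and 208 CPM in WT and 461, 280 and 577 CPM in KO (1.03, SE 0.34, adjusted p = 0.184). The lowest was Cd244, a receptor of natural killer and T cells, at 1.28, 3.46 and 4.05 CPM in WT and 0.228, 2.36 and 0.104 CPM in KO (-1.70, SE 1.09, adjusted p = 0.284). Among 6 tested genes of the TNF family that costimulate T cells, 1 (Cd27) fell over the 4 libraries. That count is close to the share of all genes that fell (13.9%). The range over 6 libraries ran from Cd40 (-1.22, SE 1.05) to Tnfrsf18 (0.13, SE 0.23).

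Of 18 genes of interferon gamma signaling, 10 fell and 0 rose over the 4 libraries, with a median log2 fold change of -1.99. Of all genes tested, 13.9% fell and 2.87% rose in that comparison. Ifng itself had 30, 30 and 27 counts in the WT libraries and 6, 48 and 0 in KO 1, KO 2 and KO 3, on which its log2 fold change did not pass over 4 libraries (edgeR adjusted p = 0.0741). Irf1 had 2656, 3808 and 3616 counts in the WT libraries and 379, 5235 and 193 in the KO libraries. It encodes a factor downstream of the interferon gamma receptor, and in it, as in Cd274, KO 2 was the highest library and KO 1 and KO 3 were the lowest. Irf1 fell over the 4 libraries with a log2 fold change of -3.36 (SE 0.47, edgeR adjusted p = 0.0343). Over all 6 libraries it did not pass (edgeR adjusted p = 0.531), and Ifng and Irf1 were named after their values were seen. Over 6 libraries the list ranged from Socs3 (-1.59, SE 0.77, adjusted p = 0.202) to Jak1 (0.46, SE 0.25, adjusted p = 0.236). Cmtm6, which keeps PD-L1 protein from degradation, had a log2 fold change of -0.26 over 6 libraries (SE 0.18, edgeR adjusted p = 0.318) and -0.40 over 4 (SE 0.18, adjusted p = 0.141).

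In bulk tissue, fewer cells of a type and less RNA per cell cannot be told apart, so markers of the cell types that make the members are given beside them. Over the 4 libraries 13.9% of all genes tested fell, the share to set beside the counts of markers that follow. The 14 T cell markers in the file summed to 85.0 to 87.6 CPM in WT libraries and to 70.7, 112 and 48.1 CPM in KO 1, KO 2 and KO 3, and 8 of them fell over the 4 libraries. Most of the sum in KO 1 and KO 3 came from markers that did not fall. These were Cd247 (17.4 and 16.6 CPM), Foxp3 (16.3 and 15.8 CPM) and Cd4 (22.9 and 3.64 CPM). Cd3e was at 3.14, 2.33 and 2.37 CPM in WT and 0.342, 4.72 and 0.208 CPM in KO, and Cd8a at 8.42, 6.41 and 6.81 CPM and 1.25, 9.04 and 0.625 CPM. Both fell over the 4 libraries (edgeR adjusted p = 0.0343), whereas Cd4 was highest in KO 1, at 22.9 CPM. Foxp3 ranged from 15.8 to 19.8 CPM over the 6 libraries, but its annotated interval overlaps Ppp1r3f and Ccdc22 on the other strand, so reads of these genes cannot be told apart. The 8 natural killer and cytotoxic genes in the file summed to 14.8 to 21.8 CPM in WT and to 1.65, 19.9 and 6.87 CPM in KO 1, KO 2 and KO 3, with 5 that fell. Of the sum in KO 3, 5.26 CPM came from Eomes alone, which was at 0.057 CPM in KO 1 and at 1.13 to 1.62 CPM in WT. The 16 microglia and macrophage markers summed to 1514 to 1602 CPM in WT and to 893, 2018 and 779 CPM in KO, with 8 that fell. Aif1 fell over the 4 libraries (-1.56, SE 0.25, edgeR adjusted p = 0.0343). Itgam had a log2 fold change of -0.07 (SE 0.22), and P2ry12, a marker of resident microglia, 0.94 (SE 0.39, adjusted p = 0.123). The 10 dendritic cell markers summed to 100 to 132 CPM in WT and to 49.6, 115 and 50.1 CPM in KO, with 4 that fell, and the 5 B cell markers to 5.77 to 8.42 CPM and to 2.17, 10.3 and 1.25 CPM, with 2 that fell. None of the defining markers Cd3e, Cd8a, Cd4, Foxp3, Aif1, Itgam, P2ry12 and Flt3 was at 0 in any library, and Ncr1 was not found by symbol among the deposited genes. By staining of tumor sections, the paper reported no significant difference between WT and KO tumors in microglia and macrophage markers or in Cd8. Staining measures protein in sections and these libraries RNA of whole tissue, and the difference between the 2 measures was not tested.

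Markers of the tumor and of normal brain set the same libraries apart. The 8 tumor progenitor markers summed to 1574 to 2420 CPM in WT libraries, to 392 in KO 1, 1757 in KO 2 and 238 in KO 3, with 6 that fell over the 4 libraries. Of all genes tested, 13.9% fell in that comparison. Olig2 was at 231, 314 and 282 CPM in WT and 57.4, 321 and 30.5 CPM in KO. The 8 neuron markers summed to 1550 to 4680 CPM in WT and to 10737, 4022 and 13039 CPM in KO, and 0 passed the test over the 4 libraries although all 8 had positive log2 fold changes. The 6 markers of myelinating oligodendrocytes summed to 1284 to 3238 CPM in WT and to 7299, 3109 and 3758 CPM in KO, and the 6 astrocyte markers to 2823 to 3585 and to 5687, 3900 and 5200 CPM. The astrocyte markers did not share one direction over the 4 libraries, as Gfap fell (-2.26, SE 0.32, edgeR adjusted p = 0.0343), Gja1 rose (1.42, SE 0.33, edgeR adjusted p = 0.0476) and Slc1a2, with the highest values in KO 1 and KO 3, did not pass (2.03, SE 0.64). The 7 endothelial markers did not follow that order, with 195 to 236 CPM in WT and 232, 208 and 174 CPM in KO, and 0 passed. Snap25, Mbp and Pecam1 were above 0 in every library. The only red blood cell marker in the file, Alas2, was between 2.32 and 11.8 CPM in all 6. KO 1 and KO 3, in which the members were low, therefore also had a higher sum of neuron markers and a lower sum of tumor progenitor markers than any WT library, and the part of this in the members' differences was not tested.

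**Figure D3:**
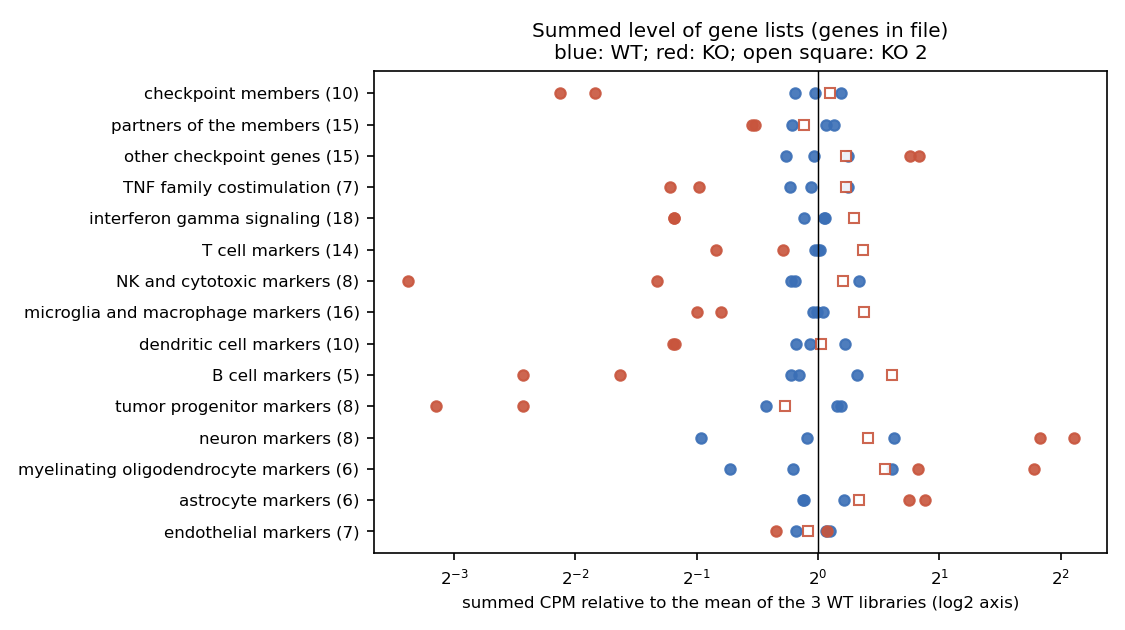
Summed CPM of each gene list (number of genes in brackets), per library, relative to the mean of the 3 WT libraries (x axis, log2), with WT in blue, KO in red and KO 2 as an open square. KO 1 and KO 3 lie left of the WT libraries for the members and for T cell, microglia and tumor progenitor markers, and right of them for neuron markers.

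Each member was set against markers of a cell type known to make it, as a ratio of CPM in the same library, with no test. Against the sum of Aif1, Itgam and Csf1r, Cd274 stood at 19.8%, 23.3% and 19.6% in WT 1, WT 2 and WT 3 and at 4.05%, 20.5% and 2.00% in KO 1, KO 2 and KO 3. The ratio in KO 2 was inside the WT range, and those in KO 1 and KO 3 were far below it. The same ratio was 5.12%, 8.20% and 5.84% in WT for Cd86, and 1.42%, 6.21% and 1.47% in KO. Cd80 (0.605% to 0.908% in WT, 0.198% in KO 1, 0.133% in KO 3) and Pdcd1lg2 (0.474% to 0.727%, 0.198% and 0.160%) followed it, and Havcr2 did so by a small margin (3.85% to 5.92%, 3.46% and 2.61%). Against the sum of Cd3d, Cd3e and Cd3g, Pdcd1 stood at 41.3% to 54.0% in WT and at 18.5%, 32.3% and 25% in KO 1, KO 2 and KO 3. Tigit (20.3% to 24.2% in WT) was at 7.41%, 18.9% and 8.33%, and Ctla4 (27.9% to 37.3%) at 14.8%, 18.3% and 25%. For these 3 receptors KO 2 also lay below the WT range, though its CPM did not. Lag3 went the other way, with 266% to 544% in WT and 781%, 241% and 1708% in KO, so that it stood higher relative to T cell markers in KO 1 and KO 3 than in any WT library. It exceeded the sum of these markers in every library and is also made by other cells. Its ratio therefore gives no level per T cell. Cd276 relative to Olig2 and Sox2 was 12.2% to 15.8% in WT and 12.5%, 9.79% and 18.2% in KO, with KO 1 inside the WT range and the others on either side of it. In all, 8 of 10 ratios were below every WT library in both KO 1 and KO 3, and 6 were so when a single marker was used in place of each sum. The share of all genes with such a ratio was not computed, but 40.4% had that pattern in CPM. The sum with Aif1 and Itgam is mostly Csf1r (log2 fold change -0.06 over 4 libraries, SE 0.21), so its ratios largely follow CPM. Of the 16 microglia and macrophage markers, 8 fell over the 4 libraries, among them Lyz2 (-2.85, SE 0.37), and 4 had positive log2 fold changes. Other markers could thus give other ratios. The denominators in KO 1 and KO 3 are small for the T cell receptors, since Cd3d, Cd3e and Cd3g had 2 to 14 counts each there.

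**Figure D4:**
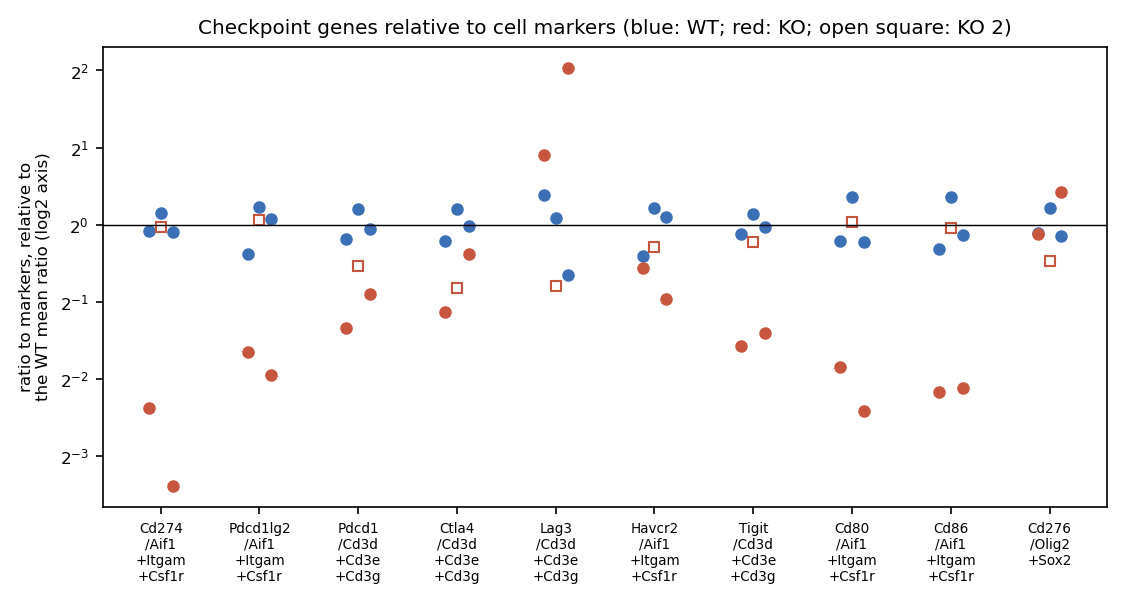
Ratio of each member to the summed CPM of the cell markers named under it, per library, relative to the mean ratio of the 3 WT libraries (y axis, log2), with WT in blue, KO in red and KO 2 as an open square. Lag3 lies above the WT libraries in KO 1 and KO 3, Cd276 is mixed, and the other 8 lie below.

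The genes whose log2 CPM was most like that of Cd274 over the 6 libraries were Aff1, Ikzf1, Arhgap9, Mrps33, Slamf8, 6430503K07Rik, Cd300lf, Apol7e, Cd8a and Amotl2. Their Pearson correlations ran from 0.9984 (Aff1) to 0.9971 (Amotl2), and Cd8a, the coreceptor of cytotoxic T cells, was at 0.9972. For Cd276 they were Zfp386, Ppp1r15b, Rps25, Hyal2, Tars, Eef1b2, Pdia4, Maml1, Pdia3 and A130010J15Rik, from 0.9995 down to 0.9987. None of these 20 genes was a member, and the lists of Cd274 and Cd276 shared none. The correlations describe 6 libraries that share depth and tissue makeup, and were chosen as the highest of all genes tested.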

How the data were processed

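Tumor RNA of 3 KO and 3 WT hosts was compared. The sample labels name the NEBNext Ultra kit, mm10, CASAVA 1.8.2 and edgeR, whereas the methods of the study name the Ovation Ultralow kit, HTSeq and hg38 (and its reporting summary STAR), so kit and build are not settled. The deposited counts are whole reads per gene, made by the authors without normalization, and the deposited FPKM values were computed by the authors per gene and library and used only for levels. Another 9 per-sample columns and the authors' own fold changes, p-values and false discovery rates were not used. No listed gene has counts in fewer than 4 libraries or a maximum under 5.

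The counts went into edgeR 4.0.16 under R 4.3.3 (TMM factors, filterByExpr with minimum count 10 and minimum total 15, quasi-likelihood F test, Benjamini-Hochberg over all genes tested), KO minus WT, called at an adjusted p under 0.05. Alternatives were RLE, upper quartile and total count scaling, no filter, a filter at a mean of 10 counts, DESeq2 1.42.0, edgeR's exact test, limma-voom (limma 3.58.1), a fold change above 4, the replicate number as a block and each library left out. DESeq2 and limma-voom without KO 2 were added after seeing the data. Totals were 17632070 to 22241832 counts per library, 3 counts correspond to 0.134 to 0.171 CPM, and intervals (exact, 95%) and floors cover counting error only, since copies made by PCR were not marked.

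The 10 members, the 16 gene lists and the comparison over 4 libraries were chosen with earlier results of these data known. Genes named were all members, the lowest and highest of each pathway list over 6 libraries, defining cell markers, Esm1, and the 10 genes most correlated with Cd274 and with Cd276 (log2 CPM, prior count 2). Some genes under this rule are not reported here by name. Nectin2, Nectin3 and Vsir were matched through older symbols. Positions are from GENCODE vM21 and promoters from RefSeq, both on GRCm38. Plots used matplotlib 3.10.9, and tables numpy 2.4.6 and pandas 2.3.3 under Python 3.11.15. No replicate pair agreed within counting noise.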

Additional observations from a re-analysis of the deposited data

How the results depend on the processing

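Of the members' log2 fold changes under alternatives, 140 of those over 6 libraries kept their side of the threshold and 30 passed it, all 30 without KO 2. The 140 include Cd274 under DESeq2, which gave it no adjusted p. Over the 4 libraries 107 kept their side, 10 lost the call and 3 gained it, and none reversed. Leaving out each of the 6 libraries in turn gave 0 to 10 members lower, 0 to 4608 of all genes lower, 0 to 3986 higher and a median of the members from -2.22 to -0.43. The upper counts came without KO 2, where DESeq2 gave 10 members, 4629 lower and 4585 higher genes and a median of -2.21, and limma-voom 10, 4536, 4231 and -2.18. Over all 6 libraries DESeq2 called 425 genes lower and 757 higher and edgeR's exact test 39 and 66. Over the 4 libraries, total count scaling gave 3606 lower genes and a median of -2.57 for the members, DESeq2 3160 lower and 2679 higher genes, the exact test 3577 and 2592, and a fold change above 4 left 1008 and 73. Leaving out each of the 4 gave 1 to 9 members lower, 252 to 4508 genes lower and 0 to 4240 higher, with the lowest counts without KO 3 (252 and 0), then without KO 1 (926 and 83), and the highest without WT 1 (4508 and 4240). Without WT 2, 2042 genes were lower and 1134 higher. The causes were not tested. With CPM per kilobase 4 members kept their place in the order of levels.

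Same-numbered WT and KO libraries did not all deviate together (correlations of 0.549, 0.594 and -0.21 for numbers 1, 2 and 3). Those of numbers 1 and 2 were the highest of any WT and KO pair. With 3 libraries per group this check cannot decide whether the numbers pair the samples. With the replicate number as a block over 6 libraries, 0 members were called and their median was -1.34. No paired analysis was possible for the 4 libraries because they share 1 replicate number. In KO 1 and KO 3, 1 to 7 counts stood behind Tigit, Ctla4, Pdcd1, Cd80 and Pdcd1lg2, which limits the size of their fold changes.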
